A study of Mus musculus with 6 samples.

Results

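Coagulation factors and the plasma proteases around them were examined in mouse induced pluripotent stem cells (iPSCs) that lack serum response factor (SRF). The group consisted of 10 genes, Habp2, F2, F3, F5, F7, F10, Plat, Plau, Thbd and Tfpi, out of 24421 gene entries in the deposited count table. They were matched by their names in the table. The list was chosen from earlier results of the same SRF KO against WT comparison. Their differences between the groups are therefore given as a description, and calls of members at a threshold are no independent test. In all, 8 of the 10 passed the filter on low counts, as did 14778 of all genes. Cells with the SRFΔ/Δ genotype (SRF KO, 3 libraries) were compared with cells carrying the SRFf/f alleles (WT, 3 libraries), all grown in medium with serum. Nothing in the labels ties the replicates to distinct cultures or clones, so p-values measure only the spread between these libraries, which may be technical.

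Blood coagulation starts when tissue factor (F3), a membrane protein, binds factor VII (F7), and the complex activates factor X (F10). Factor X then works with its cofactor factor V (F5) to turn prothrombin (F2) into thrombin. Tissue factor pathway inhibitor (Tfpi) blocks the first step, and thrombomodulin (Thbd) on the cell surface turns thrombin towards the activation of protein C, an anticoagulant. Tissue plasminogen activator (Plat) and urokinase (Plau) activate plasminogen, whose product dissolves fibrin and also cuts proteins of the matrix. Most soluble factors are made by the liver, whereas the endoderm of the early mouse embryo is a known source of plasminogen activators and of thrombomodulin.

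Libraries held 26321602 to 36680156 counts. Levels are given as CPM, the usual scaling of counts to library size, here adjusted by the trimmed mean of M values (TMM). The floor of 3 counts, the most that a reading of 0 leaves room for, corresponded to 0.0828 to 0.117 CPM depending on the library. Such limits cover counting error only. Srf was at 3.17 to 4.53 CPM in the SRF KO libraries and 29.7 to 37.2 CPM in the WT libraries, and fell by 3.12 on the log2 scale (SE 0.13, adjusted p 8.1e-09 in edgeR). Pluripotency markers were abundant in both groups, and the 10 listed summed to 5586 to 5727 CPM in SRF KO and 6718 to 7153 CPM in WT. WT replicate 2 stood apart from the other libraries on the second principal component (10.4% of the variance).

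The cell-bound and fibrinolytic members were higher in SRF KO, the coagulation zymogens were low or at the floor, and Habp2 passed the floor of 3 counts only in the SRF KO libraries. Thbd, Plau and Plat were 2.84-fold, 2.52-fold and 2.36-fold as high in SRF KO as in WT, and F3 and Tfpi 1.80-fold and 1.57-fold. F5 differed by 1.2-fold, F2 overlapped between the groups, and F7 and F10 had at most 1 count in any library. Of the 8 members past the filter, 6 were higher at an adjusted p under 0.05 (edgeR), beside 21.2% of all genes tested, and 0 were lower, beside 21.3%. The SRF KO libraries were all above the WT libraries for 7 members, beside 26.2% of all genes, and all below for 0, beside 26.5%. With WT replicate 2 set aside, the log2 fold changes were 1.41 for Thbd, 1.34 for Plau, 1.27 for Plat, 0.86 for F3, 0.70 for Tfpi, 0.27 for F5 and -0.44 for F2. The counts of members follow from how the list was chosen and support nothing further. Habp2, which enters these counts and the median below, passed the filter on low counts only through its SRF KO libraries. The median log2 fold change was 1.05 over the 8 members and -0.013 over all genes tested. Since these are bulk libraries, more cells of a kind and more RNA per cell cannot be told apart.

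**Figure D1:**
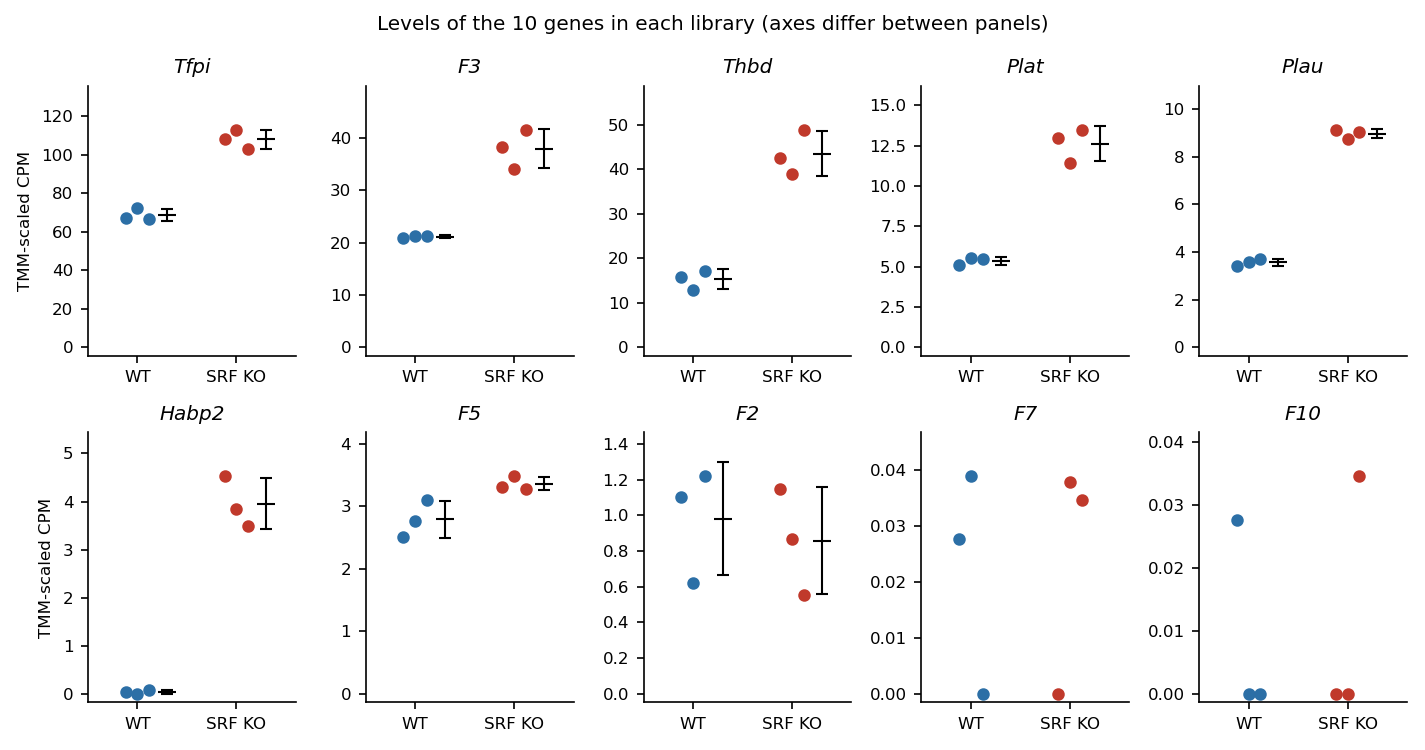
Level of each of the 10 genes (TMM-scaled CPM, linear axes from 0 that differ between panels) in the 3 WT and 3 SRF KO libraries. Points are libraries, and bars give mean ± SD except for F7 and F10, which had at most 1 count per library. The groups do not overlap for Tfpi, F3, Thbd, Plat, Plau, Habp2 and F5.

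The initiating pair of the cascade was split, with the receptor present and its ligand at the floor. F3 encodes tissue factor (chr3:121723537-121735048, plus strand, GRCm38). It measured 38.2, 34.1 and 41.6 CPM in SRF KO replicates 1 to 3 and 20.8, 21.2 and 21.3 CPM in WT replicates 1 to 3. The SRF KO libraries all lay above the WT libraries, the lowest by 1.6-fold. The means of 38.0 ± 3.74 and 21.1 ± 0.249 CPM (SD, n = 3) differed by 0.85 on the log2 scale (SE 0.08). F7 encodes the protease zymogen that tissue factor binds (chr8:13026034-13035809, plus strand). It had 0, 1 and 1 counts in SRF KO and 1, 1 and 0 counts in WT. F7 was therefore not detectable above the floor in any library, and no fold is given.

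The F3 promoter is shown because it was the richest in CG dinucleotides among the matched promoters of members and held the most motif matches. RefSeq promoters on GRCm38.p6, 250 bases before to 50 after the start, were matched for 7 of the 10 members, with 8 starts in all. Plat, Plau and Thbd had no promoter in the set, so the counts of matches below do not cover them. Both strands were searched for the AP-1 site TGANTCA, the CRE with letters TGACGTCA, the GC box GGGCGG, the GATA site AGATAA, the HNF4 site CAAAGTCCA, the FOXA site TGTTTAC, the TEAD site CATTCC, the TATA box TATAAA and the CArG box, the element that SRF binds. Capitals mark every match, shown as its complement where it lies on the opposite strand, and no matches to different motifs overlapped in the promoters printed here. The F3 promoter lies at chr3:121723287-121723586 on the plus strand.

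F3: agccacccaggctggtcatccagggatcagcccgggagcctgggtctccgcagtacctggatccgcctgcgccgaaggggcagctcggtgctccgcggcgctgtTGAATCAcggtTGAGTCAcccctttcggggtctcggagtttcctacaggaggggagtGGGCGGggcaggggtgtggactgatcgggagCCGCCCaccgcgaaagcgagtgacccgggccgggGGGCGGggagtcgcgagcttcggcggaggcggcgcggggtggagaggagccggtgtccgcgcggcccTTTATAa

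The F3 promoter had 32 CG dinucleotides, more than 90.5% of the 32851 promoters of this length. It held AP-1 matches at -146 to -140 and -135 to -129 relative to the start, 3 GC box matches and a TATAAA match on the opposite strand after the start. AP-1 matches occur in 7.81% of all promoters, GC boxes in 35.7% and TATA boxes in 13.6%. The CArG box had matches in 0 of the 8 member promoters and in 1.63% of all promoters. For the HNF4 site these figures were 0 of 8 and 0.475%, for the FOXA site 0 of 8 and 3.65%, and for the CRE 0 of 8 and 1.79%. A match is only a run of letters, and the absence of one in this window says nothing of the factor.

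The genes of the common pathway, F10, F5 and F2, were at the floor, low, and low. F10 encodes the protease that forms the prothrombin-cutting complex (chr8:13037308-13056676, plus strand). It had 0, 0 and 1 counts in SRF KO and 1, 0 and 0 counts in WT, so that it was not detectable above the floor. F5 encodes the cofactor of that complex (chr1:164151838-164220277, plus strand). It measured 3.31, 3.48 and 3.28 CPM in SRF KO and 2.51, 2.76 and 3.10 CPM in WT, where the lowest SRF KO library was 1.06 times the highest WT library. The log2 fold change was 0.27 (SE 0.13), the smallest difference among the members that did not overlap. F2 encodes prothrombin (chr2:91625320-91636414, minus strand). It had 31, 23 and 16 counts in SRF KO and 40, 16 and 35 counts in WT, or 0.858 ± 0.300 and 0.982 ± 0.317 CPM (SD, n = 3). The groups overlapped over most of their range, and the log2 fold change of -0.23 (SE 0.30) became 0.02 without SRF KO replicate 3. Leaving out replicate 1 of SRF KO instead gave -0.50. F2 was the detected member with the fewest counts, and its lowest library, at 16 counts, was the nearest above the floor of 3.

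The anticoagulant members on the cell surface were the most abundant of the list together with F3. Tfpi encodes the inhibitor of the tissue factor complex (chr2:84432855-84476775, minus strand). It measured 108, 113 and 103 CPM in SRF KO and 67.2, 72.2 and 66.6 CPM in WT. All SRF KO libraries were above all WT libraries, the lowest by 1.43-fold over the highest WT library, and the log2 fold change was 0.66 (SE 0.06). Thbd encodes thrombomodulin in a single exon (chr2:148404466-148408188, minus strand). It measured 42.5, 39.0 and 48.9 CPM in SRF KO and 15.8, 12.9 and 17.2 CPM in WT. The means were 43.4 ± 5.0 and 15.3 ± 2.17 CPM (SD, n = 3). They differed by 1.5 on the log2 scale (SE 0.11), with the lowest SRF KO library 2.26 times the highest WT library.

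Tfpi had 2 starts in RefSeq, and both promoters are shown because they differ in their matches. The first lies at chr2:84476710-84477009 and the second at chr2:84474125-84474424, both on the minus strand. Counts per gene do not tell the starts apart.

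Tfpi start 1: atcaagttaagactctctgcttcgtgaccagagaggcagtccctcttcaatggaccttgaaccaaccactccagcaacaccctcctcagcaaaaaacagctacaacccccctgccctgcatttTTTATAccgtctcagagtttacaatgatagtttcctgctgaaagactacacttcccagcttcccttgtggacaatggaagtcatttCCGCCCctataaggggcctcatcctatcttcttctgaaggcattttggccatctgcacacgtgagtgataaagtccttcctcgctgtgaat

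Tfpi start 2: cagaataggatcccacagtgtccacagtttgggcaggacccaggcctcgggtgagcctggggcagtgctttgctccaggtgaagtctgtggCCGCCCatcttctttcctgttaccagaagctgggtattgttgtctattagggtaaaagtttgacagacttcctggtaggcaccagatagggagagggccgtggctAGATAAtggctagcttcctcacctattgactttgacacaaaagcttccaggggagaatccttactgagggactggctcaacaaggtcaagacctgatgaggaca

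The first Tfpi promoter held a GC box at -41 to -36 and a TATA box at -127 to -122, both on the opposite strand. The second held a GC box at -159 to -154 on the opposite strand and a GATA site at -54 to -49, a motif with matches in 11.2% of all promoters. They had 5 and 3 CG dinucleotides, below the median of 7 over all promoters.

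The plasminogen activators Plat and Plau differed between the groups by similar amounts. Plat, on chr8:22757727-22782844 (plus strand), measured 13, 11.4 and 13.5 CPM in SRF KO and 5.08, 5.52 and 5.44 CPM in WT. Plau, on chr14:20836660-20843385 (plus strand), measured 9.14, 8.76 and 9.02 CPM in SRF KO and 3.42, 3.58 and 3.70 CPM in WT. The lowest SRF KO library was 2.07 times the highest WT library for Plat and 2.37 times for Plau. The log2 fold change was 1.25 (SE 0.10) for Plat and 1.33 (SE 0.10) for Plau.

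Habp2 differed most. It encodes a circulating serine protease that binds hyaluronan and is known to cleave factor VII and single-chain urokinase (chr19:56287137-56320822, plus strand). It had 122, 102 and 101 counts in SRF KO and 1, 0 and 2 counts in WT, or 4.53, 3.85 and 3.49 CPM in SRF KO. All WT libraries were at or under the floor, whereas the lowest SRF KO library had 101 counts. Computed against the floor of 3 counts per library, SRF KO libraries had at least 39.1-fold higher Habp2 than WT, and at least 35.8-fold to 42.3-fold when each library in turn was left out. A floor of 1 count gave 117-fold. Its exons share 268 bases with those of Nrap on the opposite strand, but Nrap had 8 counts over all 6 libraries together.

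**Figure D2:**
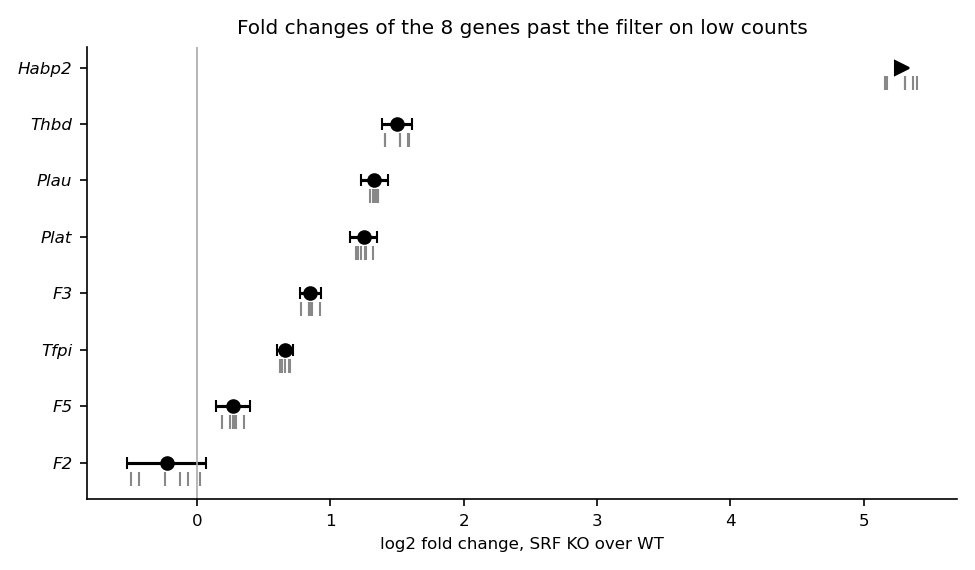
Log2 fold change (SRF KO over WT) of the 8 members past the filter on low counts, as points with SE bars, or as a triangle for the lower bound of Habp2. Grey ticks give the value when each library in turn was left out, and F2 is the gene whose ticks reach both sides of 0.

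The Habp2 promoter is shown as that of the member with the largest difference (chr19:56287662-56287961, plus strand). The RefSeq start it is centred on lies 775 bases from the start of the gene in GENCODE M21.

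Habp2: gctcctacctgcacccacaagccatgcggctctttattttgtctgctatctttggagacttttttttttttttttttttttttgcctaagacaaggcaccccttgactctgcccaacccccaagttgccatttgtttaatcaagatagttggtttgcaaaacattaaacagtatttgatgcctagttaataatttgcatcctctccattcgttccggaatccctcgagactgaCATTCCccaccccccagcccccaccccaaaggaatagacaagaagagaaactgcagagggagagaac

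It had 4 CG dinucleotides, and of the motifs searched it held 1 match, a TEAD site at -17 to -12, found in 14.7% of all promoters. The promoters of F7 and F10, the undetected members, held 0 matches and 5 CG dinucleotides each. The F2 promoter held an AP-1 match at -180 to -174, and that of F5 a GC box and a TEAD site.

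To compare levels between genes, CPM was divided by the exon length of each gene in GENCODE M21 (RPKM). In SRF KO the order was Tfpi (19.8 ± 0.969), F3 (15 ± 1.48), Thbd (11.7 ± 1.34), Plau (3.79 ± 0.0820), Plat (2.02 ± 0.170), Habp2 (1.24 ± 0.166), F5 (0.452 ± 0.0140) and F2 (0.187 ± 0.0652 RPKM, SD, n = 3). The ranges of the 3 libraries of neighbours in this order did not overlap. In WT the order of the first 5 was the same, from Tfpi at 12.6 ± 0.561 through F3 at 8.36 ± 0.0985 and Thbd at 4.11 ± 0.584 to Plau at 1.51 ± 0.0574 and Plat at 0.857 ± 0.0374 RPKM. F5 and F2 followed at 0.376 ± 0.0399 and 0.214 ± 0.0691 RPKM, and Habp2, F7 and F10 were at the floor. By the length of the longest coding transcript, a measure added after the data were seen, Plat (5.0 RPKM in SRF KO, 2.12 in WT) was above Plau (3.83 and 1.52), so the order of this pair depends on the length used. By that measure F2 (0.494 RPKM in WT) was also above F5 (0.376), with overlapping libraries.

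As the title of the study refers to noise in expression, library-to-library spread was compared for the 7 members that averaged 50 counts or more. The SD of log2 CPM was smaller in SRF KO for 4 of them, beside 68.6% of the 12344 genes at such levels. One of the 4 was Habp2, which reached such a mean only through SRF KO and whose WT spread rests on 0 to 2 counts, so its SDs are not comparable. For F3 the SD was 0.143 in SRF KO and 0.017 in WT, and for Plat 0.123 and 0.063. For F5 it was 0.043 in SRF KO and 0.149 in WT. With 3 libraries per group these are descriptions of single libraries, and the spread between bulk libraries does not measure variation between cells.

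The genes most like each member over the 6 libraries were found as those with the smallest root mean square difference of log2 CPM after centring. For Habp2 they were Aqp8 and Tfec (0.176 and 0.198 log2 units), and for Thbd Adam12 and Pde10a (0.045 and 0.091). For Plau they were Ctsc and Igf2 (0.031 and 0.036), and for Plat Tmem176b and Mfap3l (0.035 and 0.037). F3 was nearest to Rgl1 and Egfr (both 0.031), Tfpi to Nfib and Bmp2k (0.030 and 0.031) and F5 to Pld4 and Rad52 (0.041 and 0.042). The measure covers the difference between the groups as well as the replicates, and it was taken over 6 libraries. Habp2 entered this search only through its SRF KO counts, with 0 to 2 counts per WT library. Aqp8 and Tfec averaged 0.1 and 0.144 CPM in WT, also near the floor, so their match with Habp2 says little about replicates.

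Other genes of the coagulation pathway were next compared, from a list of 32 that holds no member. This list and those of fibrinolysis and complement below were drawn up with earlier results of these data known, so their counts are no independent support. Of the 32 genes, 17 were tested, and 12 were higher and 1 lower in SRF KO (edgeR quasi-likelihood test, adjusted p under 0.05), beside 21.2% higher and 21.3% lower of all genes. The median log2 fold change was 0.78 over the 17 genes, and the same with Fgb, at 0 in WT, set to its bound. Fgb, among the 12 called higher, passed the filter on low counts only through SRF KO. Pros1, the cofactor protein S, was at 66.4 ± 1.97 CPM in SRF KO against 30.0 ± 1.08 CPM in WT (SD, n = 3), and rose by 1.14 on the log2 scale (SE 0.06, adjusted p 3.5e-08 in edgeR). F2r, the thrombin receptor, had 142, 132 and 149 CPM in SRF KO and 62.8, 68.0 and 67.3 CPM in WT, and rose by 1.09 on the log2 scale (SE 0.06, adjusted p 7.9e-08 in edgeR). The groups did not overlap for either gene.

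Procr, the protein C receptor, rose by 1.03 (SE 0.12, edgeR adjusted p 4.8e-05), and Gas6, a vitamin K-dependent ligand of receptor kinases, by 1.04 (SE 0.09, edgeR adjusted p 4.8e-06) on the log2 scale. F2rl1, a receptor cut by trypsin-like proteases, rose by 0.52, and Ggcx, the carboxylase that modifies vitamin K-dependent factors, by 0.39. Vwf, the carrier of factor VIII and an adhesive protein of endothelium and platelets, had 209, 126 and 182 counts in WT and 49, 30 and 53 counts in SRF KO. It fell by 1.83 on the log2 scale (SE 0.18, adjusted p 9e-06 in edgeR) between means of 5.67 ± 0.728 and 1.6 ± 0.400 CPM (SD, n = 3). Vwf was the 1 gene of the list that was called lower.

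Part of the list was at the floor, as F7 and F10 were. All 6 libraries had at most 3 counts for 10 of the 32 genes, namely F9, F11, F12, F13b, Klkb1, Fga, Proz, F2rl3, Serpind1 and Serpina5. Proc, the zymogen of protein C, was above the floor and rose by 0.82 on the log2 scale (adjusted p 0.032 in edgeR). Proc and Fgb, the fibrinogen beta chain, were chosen after their values were seen. Fgb had 22, 22 and 21 counts in SRF KO and 0 in every WT library, at least 7.81-fold higher against the floor of 3 counts per library. As Fgb passed the filter on low counts only through SRF KO, its call as higher is a description. Its partner chains had few counts in both groups, since Fga had at most 1 count in any library and Fgg had 8, 4 and 10 counts in SRF KO and 10, 6 and 9 counts in WT. Serpinc1, the thrombin inhibitor antithrombin, had 2, 1 and 0 counts in SRF KO and 6, 3 and 2 counts in WT.

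**Figure D3:**
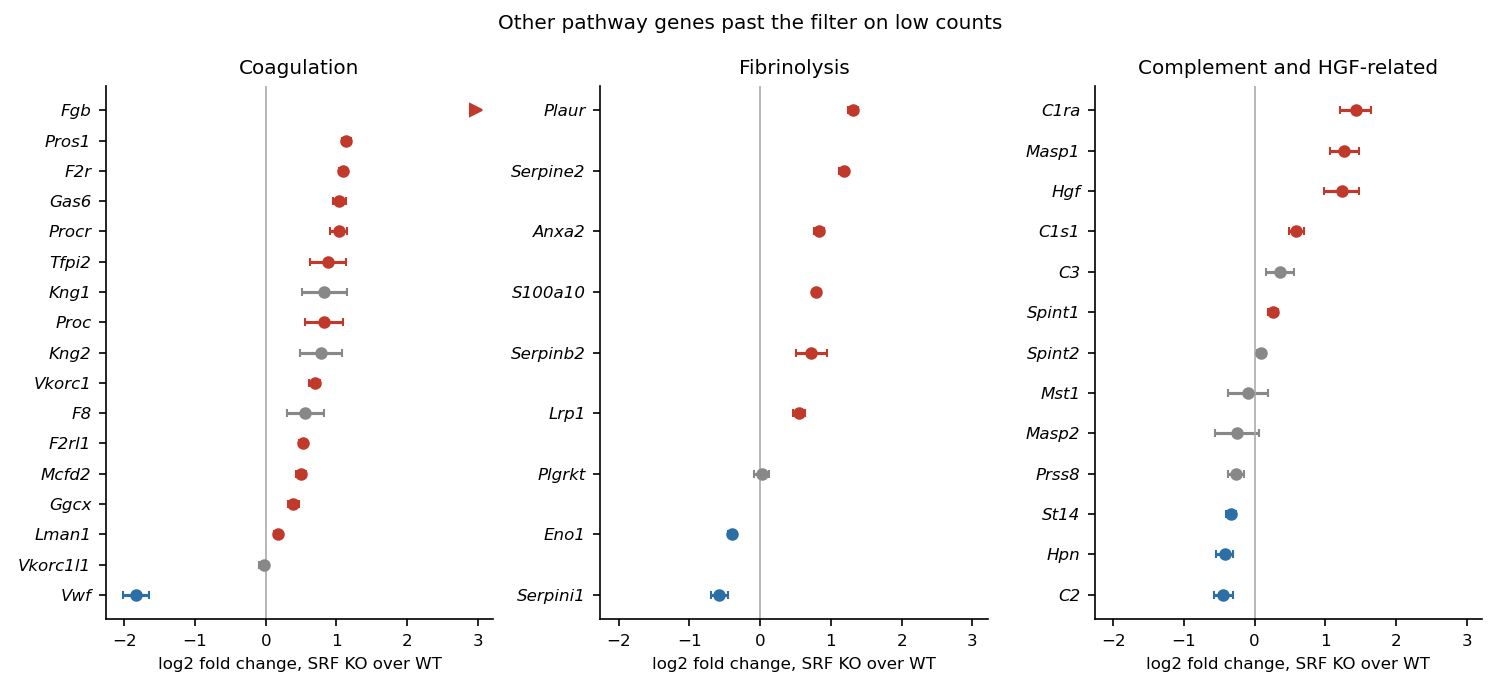
Log2 fold change (SRF KO over WT, points with SE bars) of tested genes of 3 lists that hold no member, with 1 fibrinolysis gene not drawn. Red genes were higher, blue genes lower and grey genes not called at an edgeR adjusted p under 0.05, and the triangle is the lower bound of Fgb. In the coagulation panel 12 genes were called higher and 1, Vwf, lower.

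Of 14 further genes of fibrinolysis, 10 were tested, and 7 were higher and 2 lower, beside 21.2% and 21.3% of all genes, with a median log2 fold change of 0.75. Plaur, the receptor that holds urokinase on the cell surface, had 42.1, 39.9 and 42.8 CPM in SRF KO and 16.7, 15.5 and 18.2 CPM in WT, and rose by 1.31 on the log2 scale (SE 0.07, adjusted p 9.9e-08 in edgeR). Serpine2, an inhibitor of Plat, Plau and thrombin, rose by 1.18 (SE 0.06, edgeR adjusted p 5e-08) on the log2 scale. The activators, the urokinase receptor and this inhibitor were therefore all higher in the same libraries. Anxa2 and S100a10, which form a plasminogen-binding complex on cells, rose by 0.83 and 0.79, and Lrp1, the receptor that clears activator and inhibitor complexes, by 0.55. Eno1 and Serpini1 fell by 0.40 and 0.58 and were chosen after their values were seen. Plg, plasminogen itself, had 3, 2 and 2 counts in SRF KO and 1, 0 and 0 counts in WT and was at the floor, as was Cpb2.

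In the list of 17 complement and hepatocyte growth factor-related genes, 13 were tested, and 5 were higher and 3 lower, beside 21.2% and 21.3% of all genes, with a median log2 fold change of 0.09. Leaving out SRF KO replicate 2 reduced the number lower to 1, as did leaving out WT replicate 1. C1ra and C1s1, proteases of the first complement component, rose by 1.43 (SE 0.22, edgeR adjusted p 0.0003) and 0.59 (SE 0.11, edgeR adjusted p 0.00119). Masp1, a protease of the lectin pathway, rose by 1.27, and Hgf, a growth factor with a protease-like fold, by 1.23 on the log2 scale. The 3 genes lower were C2, Hpn and St14, which fell by 0.44, 0.42 and 0.33 and were chosen after their values were seen. Hgfac, a protease related to Habp2 that activates Hgf, had at most 2 counts in any library.

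Summed markers of visceral endoderm, parietal endoderm and fibroblasts were higher in SRF KO, whereas those of hepatocytes and endothelium were not. Of 12 visceral endoderm markers, 11 were tested and 10 were higher, beside 21.2% of all genes tested, a share that applies to each list here. The visceral endoderm list summed to 1403 to 1513 CPM in SRF KO and 594 to 646 CPM in WT. Afp, one of its defining markers, was at the floor, and Apoe was lower. Apoe alone, with a WT mean of 580 CPM, made up most of the WT sum, and its SRF KO mean was 479 CPM. Over the 11 tested visceral endoderm markers the median log2 fold change was 3.83, so the sums understate how far most of them differed. Hnf4a, Foxa2, Ttr and Apoa1 had few WT counts and passed the filter on low counts only through SRF KO. The median and the 10 higher rest partly on these markers. All 11 parietal endoderm markers were higher, summing to 4479 to 4764 CPM in SRF KO and 1588 to 1669 CPM in WT. All 10 fibroblast markers were higher, summing to 861 to 1029 CPM and 425 to 480 CPM. The part of these cell types in the members' differences was not tested.

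Within SRF KO, 3 of the 8 members, F3, Thbd and Plat, had replicate 3 highest and replicate 2 lowest. This order was also that of 9 of the 10 fibroblast markers, 2 of the 11 parietal and 0 of the 12 visceral endoderm markers, and 21.2% of all genes tested. Habp2, F2, F5 and Tfpi had their lowest SRF KO library in replicate 3. The order of replicate 3 highest and replicate 2 lowest was not set in advance, and markers that vary together are not separate observations. The bearing of this order on the members was not tested.

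Markers of hepatocytes and of platelets were low. The markers called higher or lower below stand beside 21.2% and 21.3% of all genes tested, and with so few markers per list such counts are descriptions. The 8 hepatocyte markers summed to 0.529 to 0.632 CPM in SRF KO and 0.583 to 0.828 CPM in WT, 0 of them passed the filter, and Tat, Cps1, Cyp3a11, Serpina1a and Tdo2 were at the floor throughout. Of 7 platelet markers, Gp9, Gp1ba and Gp6 were at the floor and 2 of the 4 tested were higher, with sums of 4.87 to 5.17 and 4.08 to 4.43 CPM. Endothelial markers moved both ways, with 4 of 7 tested higher and 2 lower, and summed to 49.7 to 53.1 CPM in SRF KO and 67.0 to 74.1 CPM in WT. Pecam1, the most abundant of the list, fell from 55.6 to 29.4 CPM and Tek from 10.2 to 7.18 CPM, while the median log2 fold change over the tested markers was 0.93 and Cdh5, Kdr and Esam rose by 4.56, 1.49 and 1.12. Cdh5 had only 5, 7 and 5 counts in WT and passed the filter on low counts only through SRF KO. Macrophage markers summed to 29.7 to 36.9 and 23.0 to 25.1 CPM, with 2 of 5 higher. Trophoblast markers summed to 86.8 to 91.4 and 124 to 135 CPM, with 3 of 8 tested lower. Of the 10 pluripotency markers, 5 were lower and 1 higher.

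**Figure D4:**
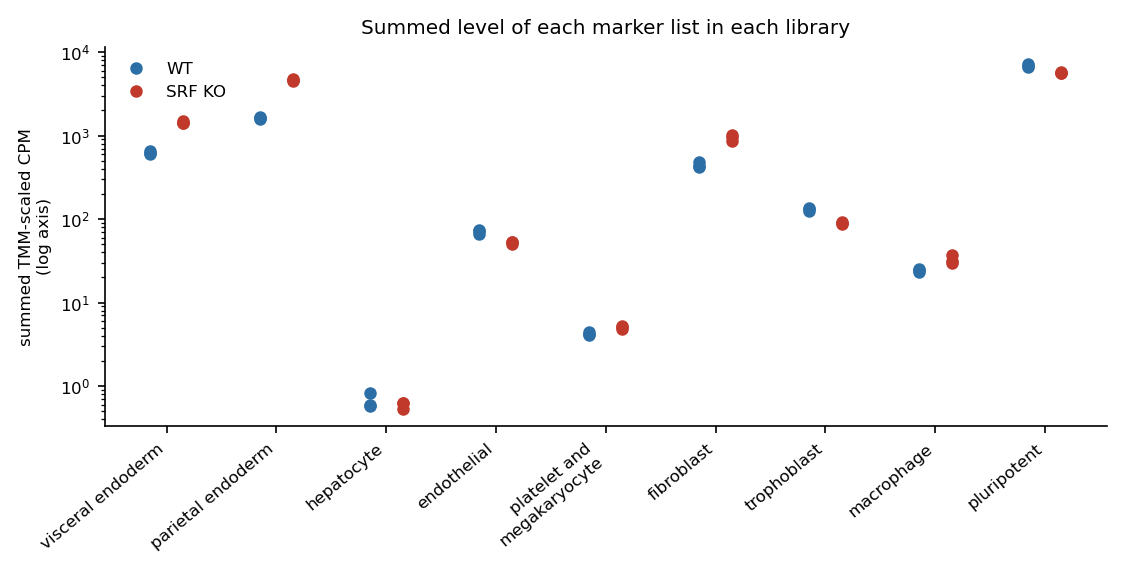
Summed TMM-scaled CPM (log axis) of each list of cell type markers, with 1 point per library. Both endoderm sums and the fibroblast, platelet and macrophage sums lie higher in each SRF KO library than in every WT one. The hepatocyte list stayed under 1 CPM in every library.

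The genes beside the members on the chromosomes were examined, as the choice of members did not use position. Of 18 neighbours in the table that are no members, 14 were tested, and 5 were higher and 2 lower (edgeR, adjusted p under 0.05), beside 21.2% and 21.3% of all genes. F10 starts 1499 bases after the end of F7, and Proz, which encodes protein Z and had at most 3 counts per library, starts 4238 bases after F10. Mcf2l, which ends 5129 bases before F7, was at 23.7 ± 0.356 CPM in WT and 18.4 ± 0.304 CPM in SRF KO (SD, n = 3), and fell by 0.36 on the log2 scale (SE 0.06, adjusted p 0.00086 in edgeR). F7, F10 and Proz at the floor thus lay beside a gene that was transcribed in all 6 libraries.

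Among the neighbours of Plat, Plau and F3, 1 was called. Beside Plat, Ikbkb and Ap3m2 had log2 fold changes of -0.06 and -0.16, and beside Plau, Camk2g and Vcl had 0.01 and -0.25. Of these only Vcl, which encodes the adhesion protein vinculin and lies 86013 bases from Plau, was called (edgeR adjusted p 0.00174). Beside F3, Abcd3 was at -0.04. Tcf7l2, the nearest gene on the lower side of Habp2 but 353483 bases away, rose by 0.46 (edgeR adjusted p 0.00091). Neighbours were also higher at Thbd, where Cd93 rose by 0.70 (SE 0.14, edgeR adjusted p 0.00185), and at Tfpi, where Calcrl rose by 0.60 (SE 0.20, edgeR adjusted p 0.0295). Selp, which encodes P-selectin and ends 1812 bases before F5, rose by 1.52 (SE 0.26, edgeR adjusted p 0.00061) from 0.486 ± 0.180 to 1.46 ± 0.162 CPM (SD, n = 3), while F5 itself was at 0.27.

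**Figure D5:**
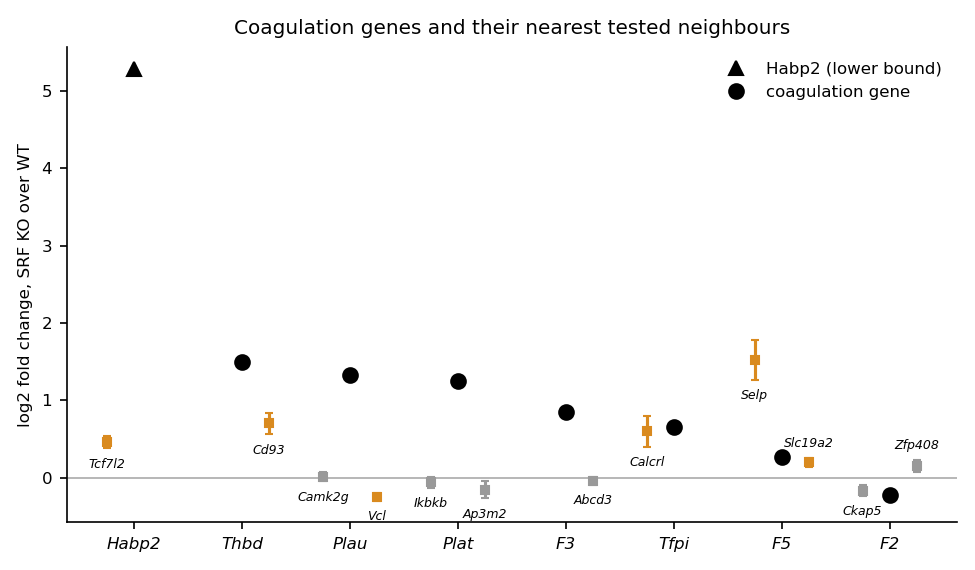
Log2 fold change (SRF KO over WT) of 8 coagulation genes (black circles, a triangle for the lower bound of Habp2) and of their nearest tested neighbours, with 1 neighbour not drawn (squares with SE bars, orange where called at an edgeR adjusted p under 0.05). The neighbours of Plat, Plau and F3 lie between -0.25 and 0.01, while Cd93 beside Thbd and Selp beside F5 lie at 0.70 and 1.52.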

How the data were processed

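RNA of mouse iPSCs, 3 SRF KO and 3 WT libraries, was sequenced as paired reads of 150 bp, per the labels' protocols. The authors deposited whole-number counts per gene (24421 entries) and per transposable element subfamily (1146), judged from the values. The submitters' processing notes name mm10 and DESeq2; aligner, counter, annotation and strand setting are not given in the sources used here, so overlapping antisense genes cannot be told apart. Columns were matched to samples by name.

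The whole table was fitted with edgeR 4.0.16 in R 4.3.3 (filterByExpr with a minimum count of 10, TMM, quasi-likelihood test, Benjamini-Hochberg over all entries, threshold 0.05), checked on data simulated with known answers. Tables and figures were made in Python 3.11.15. Levels are CPM scaled by TMM. Values at or under 3 counts were set to that floor for folds. Positions and lengths come from GENCODE M21 (GRCm38). Replicate libraries had chi-square values of 1.83 to 15.5 per degree of freedom, so no pair was merged as a library deposited more than once. Alternatives were DESeq2 1.42.0, other scalings, filters and thresholds, a replicate block and leaving out each library. Named genes are the members, the called genes of each list with the lowest p (at most 4), direct partners of members, 2 genes nearest in pattern and the flanking genes. Among the named genes, 1 gene of a list and 1 neighbour are counted but not reported here. The members and lists were chosen with earlier results of these data known.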

Additional observations from a re-analysis of the deposited data

How the results depend on the processing

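Of 112 comparisons of a count of called genes (all genes and 3 pathway lists, higher and lower) with an alternative, 101 stayed within 1.5 times. With only changes of 1 or more on the log2 scale counted, there were 817 genes higher and 260 lower, coagulation genes higher 5, fibrinolysis genes higher 2 and lower 0, and complement and HGF-related genes higher 3 and lower 0. At an adjusted p under 0.01, 2013 genes and 1 complement and HGF-related gene were lower. Stricter thresholds lower counts by construction. Leaving out each library in turn gave 1 to 4 complement and HGF-related genes lower, and the cause was not tested. DESeq2 called 11 coagulation genes higher and 1 lower.

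Whether the replicate numbers pair the libraries cannot be told from 3 libraries per group. Same-numbered deviations had correlations of 0.042, 0.203 and 0.096, with 2 of 3 libraries closest to their own number. The fit with a replicate block called 3659 higher and 3853 lower over all genes, with 13 coagulation genes higher and 1 lower. Of 93 alternative values for the 8 members, 91 moved by less than the replicate spread, and the other 2 were floors for Habp2 (117-fold with 1 count, 122-fold with none). All 204 alternatives for the 17 named pathway genes kept direction and call. Depth limits F2, F7 and F10, where a few counts decide the value.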
